A study of Rattus norvegicus with 12 samples.

Results

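The 10 genes described here are the 4 Notch receptors Notch1, Notch2, Notch3 and Notch4, the 4 Notch ligands Jag1, Jag2, Dll1 and Dll4, and the Notch target genes Hes1 and Hey1. They were taken by gene symbol from tables of 26312 genes, 1 table for each of 12 RNA sequencing libraries of whole rat uterus, and all 10 had a row in every table. Every animal was ovariectomised, had rested for 2 weeks and was 10 weeks old. The 4 groups held 3 animals each and were HSD-P4 (Holtzman Sprague Dawley, an outbred stock, given progesterone), HSD-Oil (the same stock given sesame oil, the vehicle), BN-P4 (Brown Norway, an inbred strain and the one behind the rat reference genome, given progesterone) and BN-Oil (Brown Norway given sesame oil). Progesterone (P4) was given subcutaneously at 40 µg for each g of weight, and uteri were collected at 9 h. Libraries were made from polyA RNA and held between 11763894 and 19033254 gene reads.

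Notch receptors are single-pass membrane proteins that are switched on by ligands of the Jagged and Delta-like families on a neighbouring cell. Ligand binding lets ADAM proteases and then gamma-secretase cut the receptor, and the freed intracellular domain enters the nucleus, binds the DNA-binding protein RBPJ and turns on target genes, among them the repressors of the Hes and Hey families. In the uterus, as in other tissues, Dll4 and Notch4 are best known from endothelium, Notch3 from the pericytes and smooth muscle around vessels, and Notch1 and Jag1 from several cell types. Because whole tissue was measured, fewer cells of a type and less RNA per cell cannot be told apart in any value below.

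In the submitters' build Rnor_5.0, Notch1 lay at chr3:9266672-9311575, Jag1 at chr3:136558688-136594097 and Dll4 at chr3:117685738-117695768, so that 3 of the 10 genes were on chromosome 3. Notch2 lay at chr2:219662511-219793306 and Hey1 at chr2:115062450-115064660. Notch3 was at chr7:14294587-14345774, Notch4 at chr20:6409150-6433141, Jag2 at chr6:146708461-146729480, Dll1 at chr1:242107688-242115797 and Hes1 at chr11:77360110-77362537. At least 99.9% of the reads of each of these genes were placed uniquely. Whether counting used strand is not given in the sources used here, so reads of overlapping antisense transcripts could not be separated.

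Promoter windows are shown for Hes1 and for its relatives Hey2 and Heyl, which moved with progesterone in opposite directions, because RBPJ and the Hes and Hey repressors act through short DNA motifs. The windows run from 250 bases before to 50 bases after the annotated start, 5′ to 3′ on the gene's strand, from RefSeq on GRCr8, a later build than that of the read counts. Capitals mark TGGGAA, the core bound by RBPJ, and CACNAG, the N-box bound by Hes repressors, each searched on both strands. Hes1 fell in HSD and when averaged over strains, Hey2 fell in both strains and Heyl rose in both strains, as given further on.
Hes1: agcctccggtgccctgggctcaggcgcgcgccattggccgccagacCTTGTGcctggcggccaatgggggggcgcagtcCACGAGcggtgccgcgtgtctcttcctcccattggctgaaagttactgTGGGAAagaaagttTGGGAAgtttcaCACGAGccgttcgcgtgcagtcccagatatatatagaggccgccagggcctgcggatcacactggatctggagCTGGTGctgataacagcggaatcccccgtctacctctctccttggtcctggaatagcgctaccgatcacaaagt
Hey2: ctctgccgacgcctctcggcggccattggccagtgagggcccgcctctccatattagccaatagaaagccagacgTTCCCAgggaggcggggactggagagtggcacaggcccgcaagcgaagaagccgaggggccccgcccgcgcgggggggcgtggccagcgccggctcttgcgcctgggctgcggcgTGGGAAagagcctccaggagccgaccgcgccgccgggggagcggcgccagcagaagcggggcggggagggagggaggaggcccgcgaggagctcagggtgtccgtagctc
Heyl: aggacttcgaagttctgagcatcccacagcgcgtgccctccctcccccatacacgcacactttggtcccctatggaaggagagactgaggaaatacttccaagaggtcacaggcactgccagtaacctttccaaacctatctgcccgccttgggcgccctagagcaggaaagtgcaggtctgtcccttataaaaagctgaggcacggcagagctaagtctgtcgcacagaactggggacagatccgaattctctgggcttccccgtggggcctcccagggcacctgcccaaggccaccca

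The Hes1 window (chr11:84212996-84213295, minus strand) held 2 TGGGAA matches and 4 CACNAG matches. The Hey2 window (chr1:28640850-28641149, plus strand) held 2 TGGGAA matches and no CACNAG match, and the Heyl window (chr5:140793021-140793320, plus strand) held neither. Among 33469 windows of this length, 25.7% held at least 1 TGGGAA and 3.85% at least 2, while 43.1% held at least 1 CACNAG and 11.2% at least 2. Of the 10 genes, 8 had a window. In these, Dll1 and Notch4 each held 2 TGGGAA matches, Notch3 held 1, and Notch1, Notch2, Jag1 and Jag2 held 0. Notch1, without a TGGGAA match, held 4 CACNAG matches. A match describes the letters of the window and does not show that a factor binds there.

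Per exon length, Hes1 was the most abundant of the 10 genes. Its deposited RPKM, exon reads scaled by exon length and by gene reads, averaged 17.1 ± 1.41 in HSD-P4, 24.2 ± 4.55 in HSD-Oil, 16.2 ± 1.84 in BN-P4 and 18.2 ± 1.08 in BN-Oil (SD, n = 3). Over all 12 libraries the order by mean RPKM was Hes1 at 18.9, Jag1 at 9.32, Notch1 at 8.65, Dll4 at 8.56, Notch3 at 8.45, Notch2 at 7.53, Notch4 at 6.67, Jag2 at 5.32, Hey1 at 4.12 and Dll1 at 1.58. Hes1 stood above Jag1, and Hey1 above Dll1, in 12 of 12 libraries. The other neighbours in this order, from Jag1 down to Hey1, had ranges that overlapped, and none of these pairs kept its order in more than 9 of 12 libraries.

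**Figure D1:**
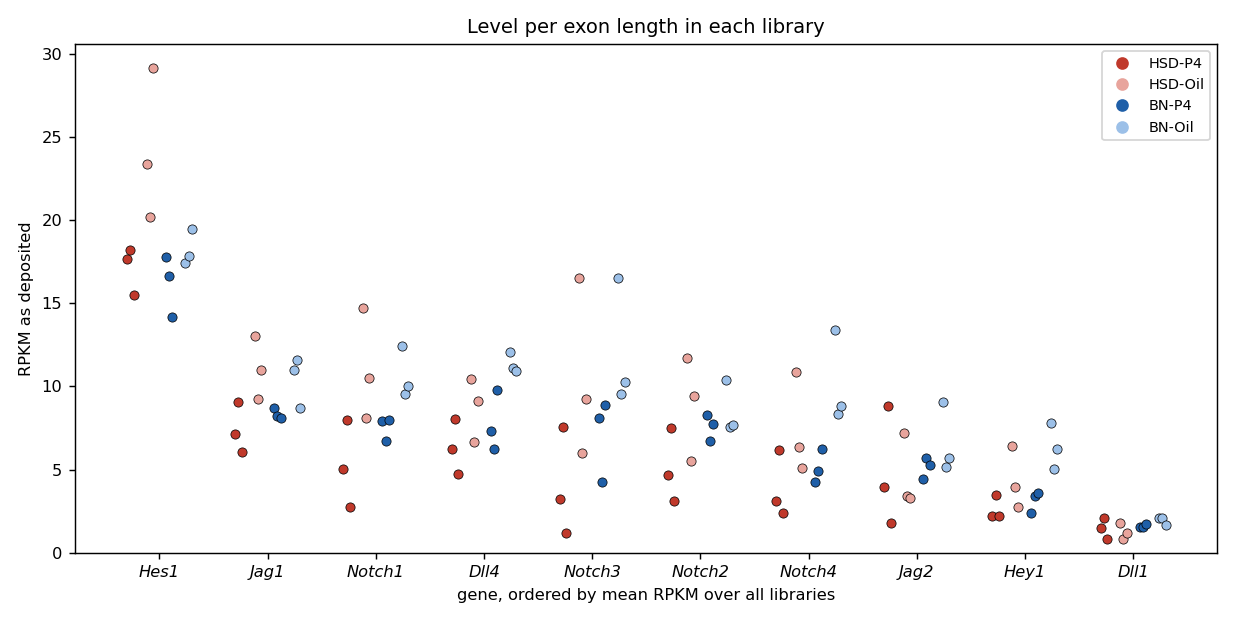
Deposited RPKM of the 10 genes in each of the 12 libraries, with genes ordered by their mean over all libraries and points coloured by group. Hes1 lies highest and Dll1 lowest, at means of 18.9 and 1.58 RPKM, and the 7 genes from Jag1 to Jag2 lie close together, between 9.32 and 5.32 RPKM on average.

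Among the receptors, Notch1, Notch3 and Notch4 fell with progesterone when averaged over strains, and Notch2 did not pass the test. Notch1, the receptor with roles in most tissues, had 58.6, 86.3 and 33.1 CPM (gene reads scaled to a common depth with TMM factors) in HSD-P4 against 148, 84.3 and 106 CPM in HSD-Oil. In BN it had 83.4, 72.9 and 83.8 CPM under progesterone against 129, 99.5 and 105 CPM under oil. In HSD only the highest progesterone library, HSD-P4 2, reached the lowest oil library, and in BN the groups did not overlap. On the log2 scale Notch1 changed by −0.93 (SE 0.28) in HSD and by −0.47 (SE 0.28) in BN, and the average of both was −0.70 (SE 0.20). Adjusted p-values by edgeR's quasi-likelihood test, after Benjamini-Hochberg over every tested gene, were 0.0191 in HSD, 0.232 in BN and 0.0102 over strains, and a gene is said to be called, or to rise or fall, where this value is under 0.05. The HSD call was lost without HSD-Oil 1, where the edgeR adjusted p was 0.0923, and without HSD-P4 1, where it was 0.0552.

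Notch4, the receptor best known from endothelium, had 35.0, 53.6 and 22.9 CPM in HSD-P4 against 82.6, 52.8 and 44.5 CPM in HSD-Oil. Its BN levels were 42.6, 43.5 and 56.9 CPM under progesterone against 110, 72.1 and 73.4 CPM under oil. The BN groups did not overlap, while in HSD the single library HSD-P4 2 lay within the oil range. Its log2 change was −0.69 (SE 0.30) in HSD and −0.84 (SE 0.29) in BN, with edgeR adjusted p-values of 0.0821 in HSD and 0.0526 in BN. Averaged over strains it fell by 0.76 (SE 0.21), with an edgeR adjusted p of 0.00881.

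Notch3, known from mural cells of vessels, was the most variable receptor. It had 35.6, 66.7 and 12.9 CPM in HSD-P4 against 127, 50.5 and 74.3 CPM in HSD-Oil, and 74.7, 41.6 and 80.1 CPM in BN-P4 against 134, 83.5 and 86.4 CPM in BN-Oil. Within HSD-P4 the highest library had 5.17 times the level of the lowest. The log2 change was −1.13 (SE 0.48) in HSD and −0.63 (SE 0.47) in BN, with edgeR adjusted p-values of 0.0796 in HSD and 0.360 in BN. Averaged over strains it was −0.88 (SE 0.34), with an edgeR adjusted p of 0.0456. That call was the least stable of the 7: it was kept in 2 of 12 refits that each left out 1 library, where the adjusted p ran up to 0.126 (without HSD-Oil 1).

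Notch2, the other broadly expressed receptor, had 46.4, 66.9 and 33.3 CPM in HSD-P4 against 93.9, 47.2 and 77.6 CPM in HSD-Oil. In BN the groups nearly coincided, at 70.9, 64.3 and 66.4 CPM under progesterone against 86.0, 63.3 and 63.2 CPM under oil. The log2 change was −0.58 (SE 0.26) in HSD, −0.08 (SE 0.26) in BN and −0.33 (SE 0.18) over strains, where the edgeR adjusted p was 0.156. It passed the test over strains without HSD-Oil 2 (adjusted p 0.0371) and without HSD-P4 2 (0.0311). As a share of the summed RPKM of the 4 receptors, Notch2 made up 29.2 ± 3.58% in HSD-P4 and 23.5 ± 3.52% in HSD-Oil, and 27.9 ± 2.53% in BN-P4 and 20.7 ± 0.924% in BN-Oil (SD, n = 3). This share lay between 25.0 and 29.7% in BN-P4, above the 19.7 to 21.5% of BN-Oil, and its ranges overlapped in HSD.

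**Figure D2:**
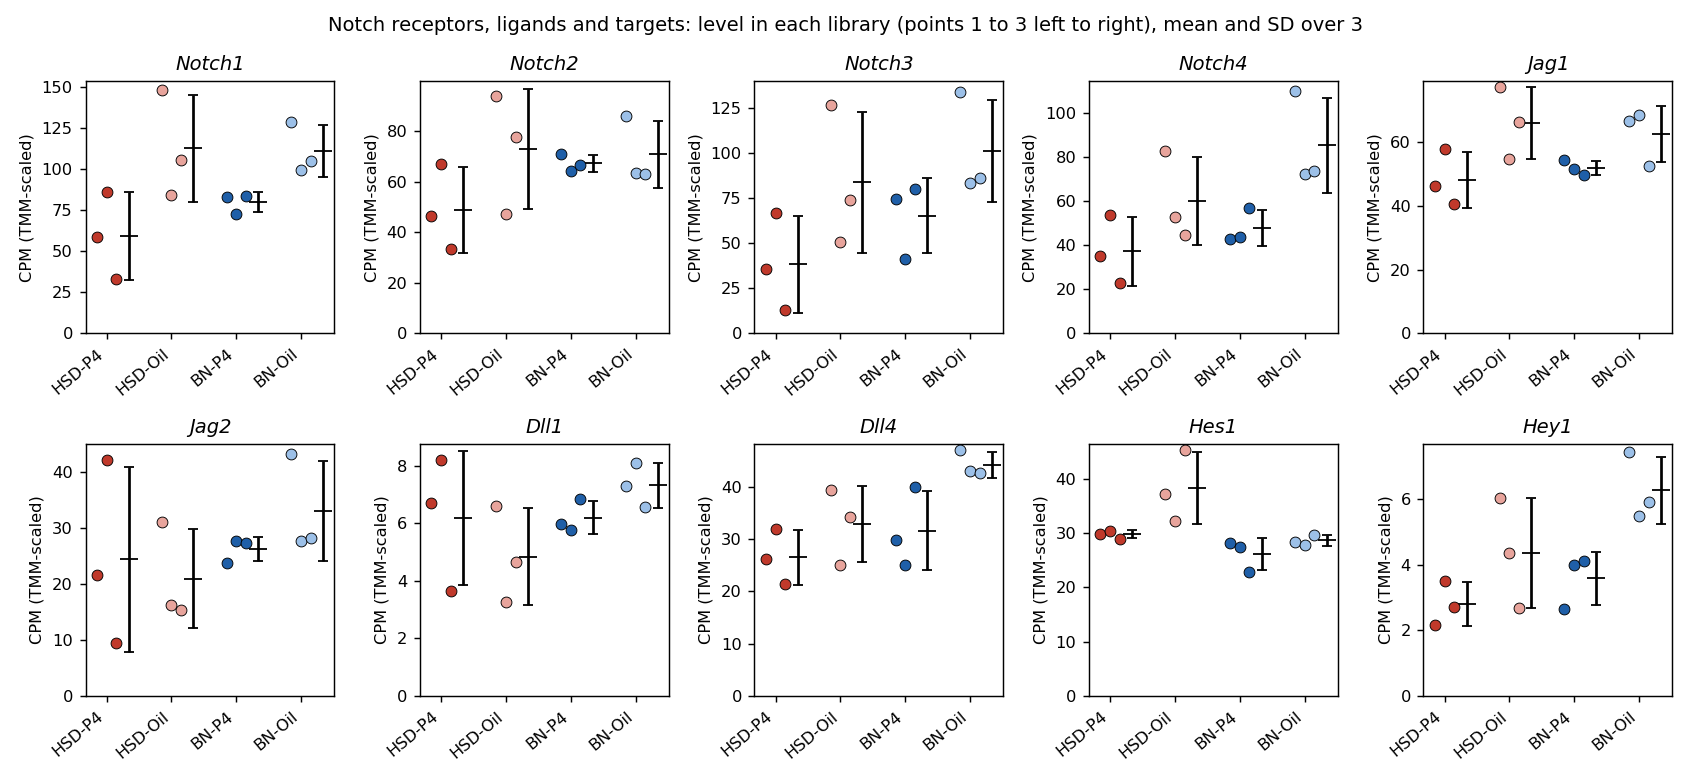
Level of each of the 10 genes in CPM after TMM scaling, 1 panel per gene, with 1 point per library and the mean and SD over the 3 libraries of a group. In BN the progesterone libraries of Notch1, Notch3, Notch4, Jag2, Dll4 and Hey1 lie wholly below the oil libraries, and in HSD this holds for Hes1. For Jag2 the groups nearly touch, at 27.617 CPM in BN-P4 and 27.637 CPM in BN-Oil.

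Of the ligands, Jag1 and Dll4 fell when averaged over strains, and Jag2 and Dll1 gave no call. Jag1, a Jagged ligand made by many epithelial, stromal and vascular cells, had 46.3, 57.9 and 40.6 CPM in HSD-P4 against 77.2, 54.6 and 66.3 CPM in HSD-Oil. BN levels of Jag1 were 54.4, 51.6 and 49.8 CPM under progesterone against 66.6, 68.6 and 52.7 CPM under oil. In each strain 1 library of each group reached into the other group's range. Its log2 change was −0.45 (SE 0.15) in HSD, −0.27 (SE 0.15) in BN and −0.36 (SE 0.11) over strains, with edgeR adjusted p-values of 0.0348 in HSD, 0.224 in BN and 0.0155 over strains. The HSD call was lost when HSD-Oil 1 (adjusted p 0.152), HSD-Oil 3 (0.0760), HSD-P4 1 (0.0939) or HSD-P4 3 (0.113) was left out.

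Dll4, the Delta-like ligand of growing vessels, had 26.2, 31.9 and 21.4 CPM in HSD-P4 against 39.5, 25.1 and 34.2 CPM in HSD-Oil. It had 29.9, 25.1 and 39.9 CPM in BN-P4 against 46.9, 43.0 and 42.6 CPM in BN-Oil. The BN-Oil libraries were close to each other and all above BN-P4, while the HSD ranges overlapped. Dll4 changed by −0.31 (SE 0.20) on the log2 scale in HSD and −0.48 (SE 0.20) in BN, neither past the test, and fell by 0.40 (SE 0.14) over strains with an edgeR adjusted p of 0.0329. That call over strains was kept in 3 of 12 refits that each left out 1 library, with adjusted p up to 0.0873 (without HSD-Oil 1).

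Jag2, the second Jagged ligand, had 21.6, 42.1 and 9.49 CPM in HSD-P4 against 31.1, 16.2 and 15.4 CPM in HSD-Oil. The levels in BN were 23.7, 27.6 and 27.4 CPM under progesterone against 43.2, 27.6 and 28.2 CPM under oil. Within HSD-P4 the highest library had 4.44 times the level of the lowest, a wider spread than in HSD-Oil. The log2 change was 0.22 (SE 0.41) in HSD, −0.33 (SE 0.41) in BN and −0.05 (SE 0.29) over strains. The sign in HSD was the opposite on log2 RPKM with a pseudocount of 0.1, at −0.12, and without a call in either.

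Dll1, the least abundant of the ligands, had 6.70, 8.19 and 3.65 CPM in HSD-P4 against 6.60, 3.27 and 4.64 CPM in HSD-Oil. In BN its levels were 5.97, 5.77 and 6.85 CPM under progesterone against 7.29, 8.09 and 6.55 CPM under oil. The groups overlapped in both strains. The log2 change was 0.35 (SE 0.29) in HSD, −0.24 (SE 0.28) in BN and 0.06 (SE 0.20) over strains. The value over strains lay below zero with upper-quartile or library size scaling, at −0.0066 and −0.02. These standard errors are close to or larger than the changes themselves, for Jag2 as for Dll1.

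The target genes differed in how tightly they were measured. Hes1, a repressor and a widely used readout of Notch activity, had 29.8, 30.5 and 29.0 CPM in HSD-P4 against 37.3, 32.3 and 45.3 CPM in HSD-Oil. In BN it had 28.2, 27.4 and 22.9 CPM under progesterone against 28.5, 27.8 and 29.7 CPM under oil. The HSD groups did not overlap, with HSD-P4 almost constant, and BN-Oil was at about the level of HSD-P4. Hes1 fell by 0.36 (SE 0.13) on the log2 scale in HSD, with an edgeR adjusted p of 0.0386, and by 0.25 (SE 0.09) over strains, with an adjusted p of 0.0383. In BN the change was −0.13 (SE 0.13). The HSD call was kept in 5 of 12 refits that each left out 1 library, and the largest adjusted p, 0.180, came without HSD-Oil 3. The call over strains was kept in 4 of 12, and the largest adjusted p, 0.0994, again came without HSD-Oil 3.

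Hey1, a repressor of the Hey family known from endothelium and mesenchyme, had 2.17, 3.52 and 2.71 CPM in HSD-P4 against 6.04, 4.35 and 2.68 CPM in HSD-Oil. In BN it had 2.66, 4.002 and 4.11 CPM under progesterone against 7.42, 5.49 and 5.90 CPM under oil. The BN groups were separate, and in HSD the single library HSD-Oil 3 lay within the progesterone range. These levels rest on 25 to 117 reads per library. The log2 change was −0.62 (SE 0.30) in HSD and −0.80 (SE 0.29) in BN, with edgeR adjusted p-values of 0.116 in HSD and 0.0576 in BN, and over strains Hey1 fell by 0.71 (SE 0.21) with an adjusted p of 0.0125.

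Over the 10 genes, 3 fell and 0 rose with progesterone in HSD, where 39.1% of the 15697 tested genes were called and 18.7% were called lower. The median log2 change of the 10 was −0.51, against −0.02 for all tested genes. In BN edgeR called 0 of 10, with 25.8% of tested genes called. All 10 BN changes lay below zero in this fit, between −0.84 and −0.08 (with limma voom Notch2 came to 0.037), with a median of −0.40 against −0.01 for all tested genes. At an unadjusted p under 0.05, 3 BN changes passed (Notch4, Dll4 and Hey1), and DESeq2 called 2 and limma voom 3 of the 10. Progesterone libraries lay wholly below oil libraries for 6 of 10 genes in BN, where 23.8% of tested genes did so, and for 1 of 10 in HSD, where 21.9% did. No gene of the 10 did so in both strains, as 15.3% of tested genes did. For Jag2 the BN gap was very narrow, from 27.617 CPM in BN-P4 to 27.637 CPM in BN-Oil. In RPKM its BN groups overlapped, with BN-P4 up to 5.69 and BN-Oil from 5.13.

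Averaged over strains, 7 of the 10 fell and 0 rose, with 48.4% of tested genes called and 23.7% called lower, and the median log2 change was −0.38 against −0.02 for all tested genes. The calls of Notch1, Notch4, Jag1 and Hey1 over strains were kept in all 12 refits that left out 1 library each. The number of genes called over strains was 4 without any 1 of HSD-P4 1, HSD-P4 3, HSD-Oil 1, HSD-Oil 3, BN-Oil 1, BN-Oil 2 or BN-Oil 3, 5 without any 1 BN-P4 library, and 8 without HSD-P4 2 or HSD-Oil 2. In HSD the 3 calls became 0 without HSD-P4 1 or HSD-Oil 1, 1 without HSD-P4 3, 2 without HSD-Oil 3, BN-Oil 2 or BN-Oil 3, 4 without HSD-Oil 2 and 5 without HSD-P4 2. Animals are the replicates, 3 per group, and all 4 groups shared 1 estimate of the spread for each gene. Each p-value thus rests on the spread between animals in all 4 groups, also where 1 strain is compared. In BN, 2 genes (Notch4 and Hey1) were called without HSD-Oil 1, without HSD-P4 2 or without HSD-P4 3.

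**Figure D3:**
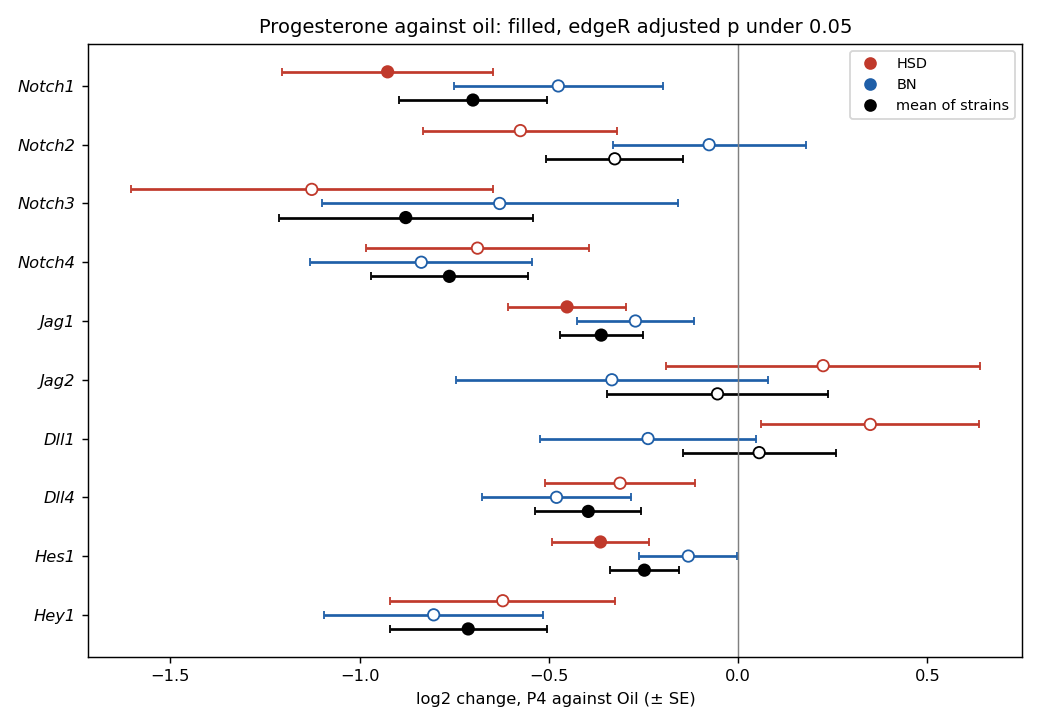
Log2 change with progesterone against oil for the 10 genes, within HSD, within BN and as the mean of both strains, with bars of 1 standard error and filled points where the edgeR adjusted p was under 0.05. All BN points lie left of zero without a call, Notch1, Jag1 and Hes1 are called in HSD, and 7 genes are called over strains.

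In HSD most of the 10 genes varied together from library to library within a group. HSD-P4 3 was the lowest library of its group for 9 of the 10 genes, as it was for 39.5% of all tested genes, and HSD-P4 2 was the highest for 10 of 10, as it was for 35.1% of all. HSD-Oil 1 was the highest of its group for 9 of 10, against 32.6% of all, and HSD-Oil 2 the lowest for 7 of 10, against 34.6% of all. BN-Oil 1 was the highest of its group for 7 of 10, against 38.9% of all. BN-P4 was split, with BN-P4 1, 2 and 3 the highest for 3, 1 and 6 of the 10 genes. The median deviation of the 10 genes from their group mean was 0.49 on the log2 scale in HSD-P4 2 and −0.55 in HSD-P4 3. Hes1 hardly took part, at 0.03 in HSD-P4 2 and −0.04 in HSD-P4 3. The 10 genes share these libraries, so their changes are not independent of each other.

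The summed markers of vessels, smooth muscle, macrophages and T and NK cells all followed the same library order in HSD. Stromal sums did so in HSD-P4 and epithelial sums in HSD-Oil. The ciliated cell sum ran the opposite way, at 83.5, 76.5 and 139 CPM in HSD-P4 against 89.2, 121 and 110 CPM in HSD-Oil. The sizes differed by list. In HSD-P4 1, 2 and 3 the smooth muscle sum deviated from its group mean by 0.06, 0.51 and −0.57 on the log2 scale. T and NK cell sums there deviated by −0.04, 0.11 and −0.07. The part of cell types in this order was not tested. Summed over 11 endothelial markers, levels were 696, 775 and 544 CPM in HSD-P4 against 797, 624 and 746 CPM in HSD-Oil, and 853, 679 and 851 CPM in BN-P4 against 975, 878 and 855 CPM in BN-Oil. Summed over 6 pericyte markers, they were 605, 733 and 416 CPM in HSD-P4 against 835, 670 and 791 CPM in HSD-Oil, and 805, 590 and 831 CPM in BN-P4 against 1014, 955 and 981 CPM in BN-Oil. Pericyte sums were thus lower under progesterone in every BN library, and lower in HSD except for the overlap of HSD-P4 2 with HSD-Oil 2.

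By gene, 1 endothelial marker rose (Emcn) and 4 fell (Cdh5, Tie1, Vwf and Erg) of 11 over strains, and 2 pericyte markers fell (Pdgfrb and ABCC9) of 6. Over strains the Cdh5 call was kept in 6 and the Tie1 call in 8 of 12 refits that each left out 1 library. Those of Emcn, Vwf, Erg, Pdgfrb and ABCC9 were kept in all 12. Within strains, 1 endothelial marker rose and 2 fell in HSD, and 0 of 11 were called in BN. In HSD 1 pericyte marker rose and 2 fell, and in BN 0 rose and 3 fell. The one that rose in HSD was Rgs5, by 0.32, a call kept in 3 of 12 refits that each left out 1 library. None of 7 smooth muscle markers was called over strains, and their sum ranged from 8184 to 17259 CPM in HSD-P4 against 9815 to 14151 CPM in HSD-Oil. Of 15 nuclear oxidative phosphorylation subunits, listed as a sign of RNA quality, 14 rose over strains, 14 in HSD and 4 in BN. Their sum was 2239, 2018 and 3286 CPM in HSD-P4 against 1326, 1704 and 1417 CPM in HSD-Oil. In BN it was 1650, 2074 and 1880 CPM under progesterone against 1311, 1514 and 1456 CPM under oil. This sum was highest in HSD-P4 3, the library in which the Notch genes were lowest. Epithelial and stromal markers were present in every library, with sums of at least 775 CPM over 11 epithelial and 4522 CPM over 7 stromal genes. No marker of these types was at 0 in a library. Macrophage sums were 403 to 570 CPM in HSD-P4 against 472 to 671 CPM in HSD-Oil, and T and NK cell sums 66.7 to 75.6 CPM in HSD-P4 against 47.6 to 55.4 CPM in HSD-Oil. The part of these marker differences in the changes of the Notch genes was not tested.

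**Figure D4:**
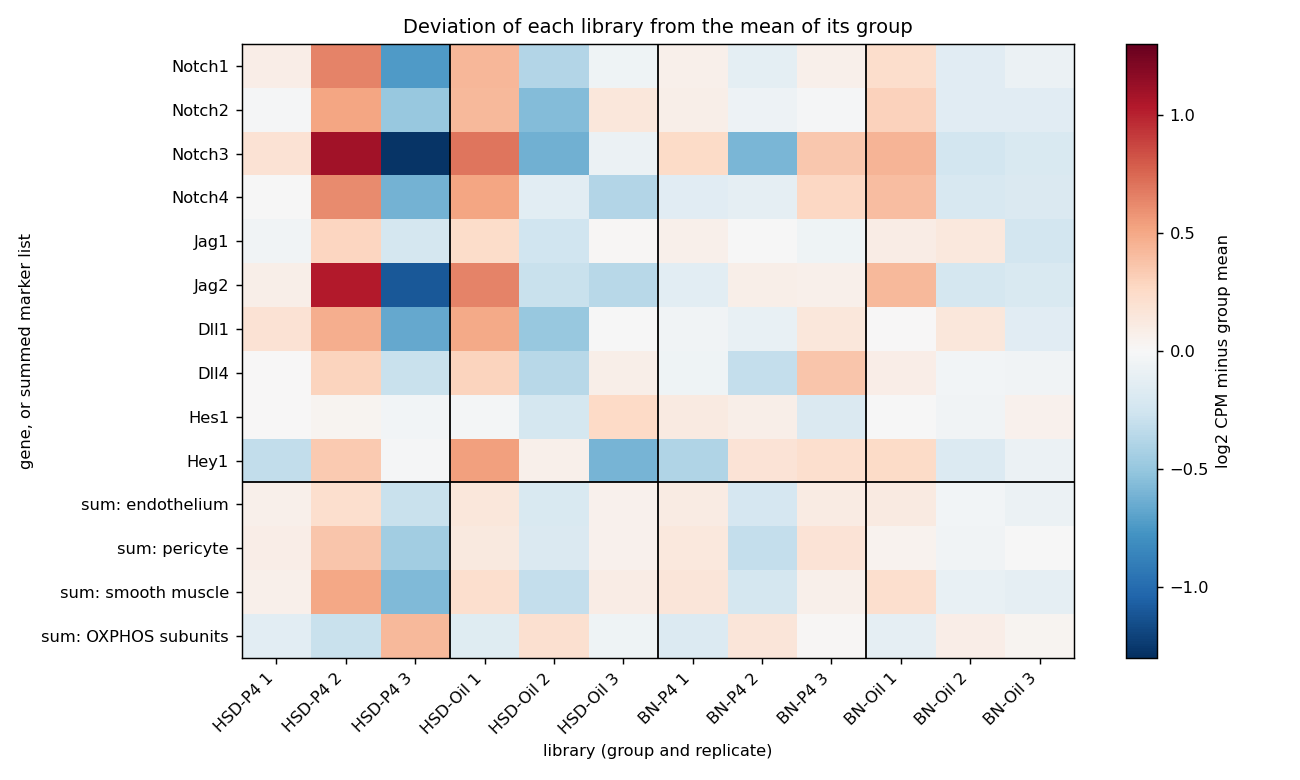
Deviation of each library from the mean of its group, in log2 CPM, for the 10 genes (upper rows) and for 4 summed marker lists (lower rows), with libraries in columns. HSD-P4 2 is high and HSD-P4 3 low across the Notch genes, at medians of 0.49 and −0.55, and the vessel and smooth muscle sums show the same signs while the oxidative phosphorylation sum shows the opposite ones.

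The share of a gene's reads that lay in introns also differed between libraries. For Notch3 it was 29.6, 14.2 and 26.03% in HSD-P4 against 7.40, 16.1 and 11.4% in HSD-Oil, and 20.4, 24.8 and 18.7% in BN-P4 against 10.5, 18.9 and 16.4% in BN-Oil. For Notch2 it was 14.98, 7.64 and 20.2% in HSD-P4 against 3.46, 10.8 and 5.69% in HSD-Oil. Over all genes the share was 20.0 to 23.0% in HSD-P4 against 21.6 to 25.7% in HSD-Oil, and was thus not higher in HSD-P4. Counted on exon reads alone, Notch4 and Hey1 passed the test in BN, with log2 changes of −0.95 and −0.99.

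Between the strains, 0 of the 10 genes were called. Under oil, where 5.69% of tested genes were called, the log2 differences of BN-Oil against HSD-Oil ran from −0.42 (Hes1) to 0.66 (Jag2). Hes1 in BN-Oil lay wholly below HSD-Oil, as 13.1% of tested genes did, with an edgeR adjusted p of 0.0822, and it was the only gene of the 10 at an unadjusted p under 0.05. DESeq2 and limma voom each called this 1 gene, and edgeR called it without HSD-Oil 2 (adjusted p 0.0339). Dll4 in BN-Oil lay wholly above HSD-Oil, as 12.6% of tested genes did, with a log2 difference of 0.42 (SE 0.20) and an edgeR adjusted p of 0.282.

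Cell type markers differed between the oil groups as well. All 11 epithelial markers had a log2 difference below zero, with a median of −0.45, and 4 were called lower in BN-Oil (Epcam, Krt7, Krt18 and Foxa2). Their sum was 813 to 854 CPM in BN-Oil against 910 to 1314 CPM in HSD-Oil. None of 11 endothelial and 6 pericyte markers lay below zero, with medians of 0.25 for endothelium and 0.40 for pericytes, and 2 pericyte markers were called higher in BN-Oil (Rgs5 by 1.03 and Kcnj8 by 0.56). Endothelial sums were 855 to 975 CPM in BN-Oil against 624 to 797 CPM in HSD-Oil, and pericyte sums 955 to 1014 CPM in BN-Oil against 670 to 835 CPM in HSD-Oil. Other lists differed too. All 8 tested T and NK cell markers lay below zero, with a median of −0.44, and 1 was called lower in BN-Oil. Below zero were 0 of 7 smooth muscle (median 0.32), 1 of 7 stromal (0.23) and 2 of 8 macrophage markers (0.18). Hes1 thus had the sign of the epithelial and of the T and NK cell markers. Dll4 had that of the vessel and smooth muscle markers and of most stromal and macrophage markers. The part of these differences in the values of Hes1 and Dll4 was not tested.

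Under progesterone, with 5.73% of tested genes called, edgeR, DESeq2 and limma voom each called 0 of the 10, and 0 passed at an unadjusted p under 0.05. The log2 differences of BN-P4 against HSD-P4 ran from −0.19 (Hes1) to 0.77 (Notch3). Hes1 in BN-P4 was again wholly below HSD-P4, as 11.8% of tested genes were. Of the 11 epithelial markers 8 lay below zero between BN-P4 and HSD-P4, with a median of −0.36, and 2 were called lower in BN-P4 (Krt7 and Krt18). All 8 tested T and NK cell markers lay below zero as well, with a median of −0.77 and 1 called lower. So did all 15 oxidative phosphorylation subunits, with a median of −0.39 and 1 called lower. Below zero were 1 of 11 endothelial (median 0.23), 1 of 6 pericyte (0.28) and 1 of 7 smooth muscle markers (0.04). The same held for 0 of 7 stromal (0.30), 4 of 8 macrophage (−0.06) and 2 of 4 ciliated cell markers (0.005). Vwf (by 1.93) and Rgs5 (by 0.56) were called higher in BN-P4. The part of these differences in the values of the 10 genes was not tested. The progesterone change did not pass a test of difference between strains for any of the 10, with 0.051% of tested genes called, 0 of the 10 at an unadjusted p under 0.05, and 0 called by DESeq2 or limma voom. The BN change minus the HSD change ran from −0.59 (SE 0.40, Dll1) to 0.50 (SE 0.36, Notch2), with edgeR adjusted p-values from 0.832 to 0.970. Standard errors of this size leave room for strain differences of either sign. Library barcodes did not overlap between groups, and in 3 of the 4 groups 2 libraries carried the same barcode, so group and any batch that follows the barcodes cannot be told apart.

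Beyond these 10, 60 further genes of the Notch pathway had a row, and 55 had enough reads to be tested. In HSD 7 rose and 17 fell, in BN 5 rose and 10 fell, and over strains 8 rose and 20 fell. Their median log2 change was −0.25 in HSD, −0.13 in BN and −0.19 over strains. Of all tested genes 20.3% rose and 18.7% fell in HSD, 14% rose and 11.8% fell in BN, and 24.6% rose and 23.7% fell over strains. Called in both strains were 11 genes, in the same direction each, which were 45.8% of the HSD calls and 73.3% of the BN calls. Over all tested genes, the calls shared by both strains were 56.7% of the HSD calls and 86% of the BN calls, so the pathway genes did not share more of their calls than genes at large. Of these, 4 rose (Heyl, Poglut1, Rbpjl and Mfap2) and 7 fell (Psen2, Cir1, Numbl, Dtx2, Dtx3, Hey2 and Mfap5). The strains were each compared with their own oil group.

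The Hey family split by direction. Heyl, the third Hey repressor and known from mural cells, had 54.5, 81.6 and 37.2 CPM in HSD-P4 against 38.5, 27.4 and 26.2 CPM in HSD-Oil. It had 91.7, 56.0 and 86.2 CPM in BN-P4 against 34.5, 29.2 and 24.001 CPM in BN-Oil. The BN groups were far apart, and in HSD the lowest progesterone library lay just under the highest oil library. Heyl rose by 0.91 (SE 0.27) on the log2 scale in HSD, by 1.41 (SE 0.27) in BN and by 1.16 over strains, with edgeR adjusted p-values of 0.0173 in HSD, 0.00254 in BN and 0.000288 over strains. The call over strains held under all 12 other settings and in all 12 refits that left out 1 library, and the HSD call in 9 of those 12.

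Hey2, known from arterial endothelium and smooth muscle, went the other way. It had 6.78, 7.04 and 4.95 CPM in HSD-P4 against 8.87, 7.83 and 10.1 CPM in HSD-Oil, and 9.04, 7.87 and 8.75 CPM in BN-P4 against 11.4, 11.3 and 12.9 CPM in BN-Oil. The groups did not overlap in either strain. It fell by 0.51 in HSD, 0.47 in BN and 0.49 over strains on the log2 scale, with edgeR adjusted p-values of 0.0249 in HSD, 0.0487 in BN and 0.00344 over strains. Its BN call was kept in 3 of 12 refits that left out 1 library, and the call over strains in 12 of 12. Hes7, a Hes repressor known from the embryonic segmentation clock, was called lower in BN, at 0.753, 0.918 and 0.685 CPM in BN-P4 against 1.85, 1.69 and 1.31 CPM in BN-Oil (edgeR adjusted p 0.0291). At least 85.7% of its BN reads lay in introns, and counted on exon reads its BN change had the opposite sign, 0.65. Nrarp, an inhibitor that is itself a Notch target, had 10.2, 12.7 and 5.95 CPM in HSD-P4 against 7.95, 5.10 and 6.15 CPM in HSD-Oil and did not pass.

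Among genes that act on the receptors, Poglut1, a glycosyltransferase of the Notch extracellular domain, rose by 0.69 over strains, and Rfng, a Fringe glycosyltransferase, by 0.45. Mfng, another Fringe, fell by 0.44, and Lfng gave −0.28 without a call. Of the proteases, Psen2, a catalytic subunit of gamma-secretase, fell by 0.64, Aph1b and Ncstn, further subunits, by 0.55 and 0.26, and Adam17 by 0.21. Adam10 had a log2 change of −0.025 and was not called. Numbl, related to the Notch inhibitor Numb, fell by 0.84 and Numb by 0.28. Mfap5 and Mfap2, microfibril proteins reported to bind Notch or its ligands, moved apart, with Mfap5 falling by 0.97 and Mfap2 rising by 0.70.

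Among nuclear factors, Rbpj had a log2 change of 0.12 over strains and was not called. Its paralogue Rbpjl rose by 0.92, and by 0.58 to 1.02 under the 12 other settings. Of the Mastermind coactivators Maml3 fell by 1.15 and Maml2 by 0.57, and Maml1 gave −0.29 without a call. Maml3 stood at 2.09, 2.80 and 1.00 CPM in HSD-P4 against 6.91, 3.97 and 5.31 CPM in HSD-Oil, and at 3.30, 1.84 and 3.48 CPM in BN-P4 against 5.95, 4.15 and 5.49 CPM in BN-Oil. The groups did not overlap in either strain, though the BN change of −0.84 had an edgeR adjusted p of 0.0872. Of the acetyltransferases that serve as coactivators, EP300 fell by 0.48, Crebbp by 0.44 and Pcaf by 0.24. Cir1, a corepressor of RBPJ, fell by 0.73, and Hdac1, a histone deacetylase found in corepressor complexes, rose by 0.28. Fbxw7, the ubiquitin ligase that marks the Notch intracellular domain for degradation, rose by 0.45, and Itch, another ubiquitin ligase that acts on Notch, by 0.24. Of the Deltex ubiquitin ligases Dtx2 fell by 0.56, Dtx3 by 0.53 and Dtx3l by 0.47, and Neurl1b, of the Neuralized family, fell by 0.59. The edgeR adjusted p-values of the 28 pathway genes called over strains ran from 3.96e-06 to 0.0307.

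**Figure D5:**
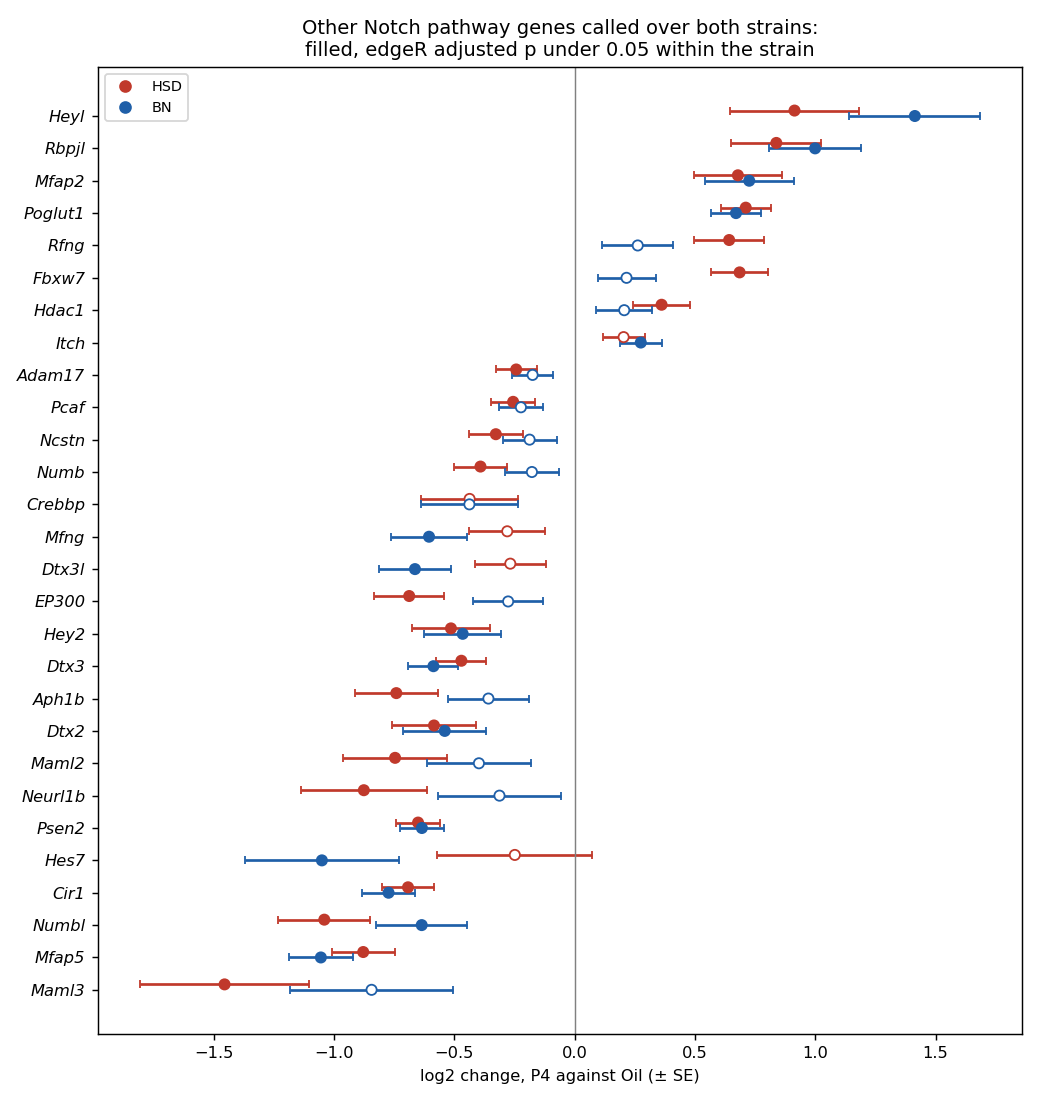
Log2 change with progesterone against oil in HSD and in BN for the 28 further Notch pathway genes called over strains, ordered by the mean change, with bars of 1 standard error and filled points where the edgeR adjusted p was under 0.05 within the strain. The points of both strains lie on the same side of zero for each gene, from Heyl, Rbpjl, Mfap2 and Poglut1 at the high end to Mfap5 and Maml3 at the low end.

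Between the strains, 2 of the 55 tested pathway genes were called under oil and 2 under progesterone. Of all tested genes 5.69% were called under oil and 5.73% under progesterone. Counts this small do not tell the pathway genes from genes at large, and both changed with the setting, as given further on. Numb was higher in BN, by 0.45 on the log2 scale under oil and 0.66 under progesterone, with edgeR adjusted p-values of 0.0343 under oil and 0.00454 under progesterone. Mfng was higher in BN-Oil than in HSD-Oil by 0.62 (edgeR adjusted p 0.0354), and Fbxw7 was lower in BN-P4 than in HSD-P4 by 0.60 (0.0104). The call of Numb under progesterone was kept in all 12 refits that left out 1 library, those of Numb and Mfng under oil in 4 and 6 of 12, and that of Fbxw7 in 11 of 12. Each of these 4 calls was kept under 8 of 12 other settings, and none held on RPKM or on exon reads alone. On exon reads Numb had an edgeR adjusted p of 0.484 under oil and 0.107 under progesterone, Mfng of 0.0698 and Fbxw7 of 0.110.

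The tested genes whose pattern over the 12 libraries lay nearest to that of Hes1, by the root mean square difference of centred log2 CPM, were Mfsd6 at 0.0904, Dsc2 at 0.108 and Lsr at 0.113. For Jag1 they were KDM2B at 0.0988, Dennd1a at 0.0992 and Wwp2 at 0.103. For Notch1 they were Prrc2b at 0.0971, Nfix at 0.109 and Ltbp4 at 0.115. The nearest genes of the 3 were thus 9 different ones, and none was among the Notch pathway genes listed. Only 55 of the 15697 tested genes were such further pathway genes, so their absence among 9 neighbours tells little.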

How the data were processed

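Values were 12 per-library tables of whole uterus RNA, 1 per animal. The unit tested was the count of total gene reads, exons and introns, deposited by the authors per the file headers. The deposited RPKM, per the file headers exon reads scaled by exon length and gene reads, was used for levels between genes and was recomputed to within 0.1% except for 561 rows. The build was Rnor_5.0 per the submitters' processing notes, and neither aligner nor counter is given in the sources used here. Counts were fitted in R 4.3.3 with edgeR 4.0.16 (filterByExpr, TMM, robust quasi-likelihood, 4 groups, 8 residual degrees of freedom), which kept 15697 genes with 99.95% of reads at a common biological coefficient of variation of 0.157. A call needed an adjusted p below 0.05 (Benjamini-Hochberg, every tested gene). Standard errors are the change divided by the root of the F statistic. The fit was tested on simulated data. The floor of detection was 3 reads, or 0.157 to 0.255 CPM, and covers counting error only.

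Alternatives were RLE, upper-quartile and library size scaling, no filter, DESeq2 1.42.0, limma 3.58.1 (voom, and trend on log2 RPKM with pseudocounts of 0.1 and 1), unique or exon reads, and leaving out each library. Leaving out HSD-P4 2 and 3 together (which leaves 1 HSD-P4 library) and adding 1 surrogate variable (sva 3.50.0) were chosen after seeing the data. Members and gene lists were chosen with earlier results of these data known. All 10 members are named, pathway genes were named where called, or as core components, and the 3 nearest patterns are given for Hes1, Jag1 and Notch1. Of the pathway list, Dll3, Dlk1, Dner, Hes3 and Hes5 had too few reads to test.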

Additional observations from a re-analysis of the deposited data

How the results depend on the processing

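The main counts of the 10 genes called (3 in HSD, 0 in BN, 7 over strains, 0 in each strain comparison) moved as follows. In HSD 5 were called with library size alone, limma voom or 1 surrogate variable, and 1 without HSD-P4 2 and 3 together, where HSD-P4 is left with 1 library that is assumed to vary like the other groups, so that this setting also changes the precision of each comparison with HSD-P4; leaving out single libraries gave 0 to 5. In BN 1 was called with RLE, either RPKM pseudocount or 1 surrogate variable, 2 with upper-quartile or library size scaling, DESeq2, exon reads or without the HSD-P4 pair, and 3 with limma voom; single libraries gave 0 to 2. Over strains 4 were called without the HSD-P4 pair, and 4 to 8 without single libraries. Between strains under oil 1 was called by DESeq2 and by limma voom, and 0 to 1 without single libraries. Leaving out HSD-P4 3 and HSD-Oil 1 together was also tried and lost most of the 7 calls over strains. Its values are not given because those libraries had been picked by the levels of these genes, in the direction of the difference. HSD-P4 2 and 3 were extreme for these genes too, being the highest of their group for 10 and the lowest for 9 of the 10. The cause of the other shifts was not tested.

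Of the further pathway genes, 24 were called in HSD (14 without the HSD-P4 pair), and 15 in BN (27 with limma voom, 9 to 17 without single libraries). Under oil the 2 strain calls became 1 without a filter or with 1 surrogate variable, 6 with limma voom, 0 with exon reads or either RPKM setting and 4 without the pair (0 to 4 without single libraries). Under progesterone the 2 became 5 with DESeq2 or limma voom, 1 with either RPKM setting and 0 without the pair (1 to 6 without single libraries).

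Over all tested genes, 6749 rather than 4045 were called in BN with limma voom, and 2651 to 5024 without single libraries. The 893 strain calls under oil became 1968 with limma voom, 531 with exon reads, 480 and 570 with RPKM pseudocounts of 0.1 and 1, 1406 without the pair, and 439 to 1323 without single libraries. The 900 under progesterone became 1519 with DESeq2, 1679 with limma voom, 565 with exon reads, 500 and 491 with the RPKM pseudocounts, 474 without the pair, and 343 to 1454 without single libraries. The 8 calls of a strain difference in the change became 118 with DESeq2, 20 with limma voom, 13 with RPKM and a pseudocount of 1, 22 without the pair, 14 with 1 surrogate variable, and 2 to 16 without single libraries. Library size alone moved the median of all genes to −0.14 in HSD and turned 3193 higher and 2940 lower calls into 2355 and 4034; over strains 3868 and 3727 became 3129 and 4637, and under progesterone the strain calls became 586 higher and 376 lower against 381 and 519. Upper-quartile scaling turned 2196 higher and 1849 lower calls in BN into 1759 and 2251, and the 4 higher and 4 lower calls of a strain difference in the change into 5 and 3.

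Apart from Hes7, the changes of sign below concern no call. In HSD Jag2 was −0.12 and −0.069 with the RPKM pseudocounts and −0.051 with 1 surrogate variable (−0.46 to 0.63 without single libraries). In BN Notch2 was 0.037 with limma voom (−0.15 to 0.088 without single libraries). Over strains Dll1 was −0.0066 with upper-quartile scaling, −0.021 with library size, −0.045 and −0.033 with the RPKM pseudocounts and −0.032 with 1 surrogate variable (−0.087 to 0.20), and Jag2 was 0.023 with limma voom (−0.40 to 0.15). Under oil Notch3 was −0.078 with 1 surrogate variable, and without single libraries Jag1 ran from −0.20 to 0.052, Notch1 from −0.19 to 0.23 and Notch2 from −0.27 to 0.18. Under progesterone Dll1 was −0.0015 with RLE, −0.0023 with DESeq2, −0.048 with limma voom, −0.13 without the pair and −0.090 with 1 surrogate variable (−0.29 to 0.29), and Jag2 was −0.039 with 1 surrogate variable (−0.31 to 0.78), and Jag1 ran from −0.023 to 0.26. For the strain difference in the change Notch4 was 0.0022 with an RPKM pseudocount of 0.1 (−0.45 to 0.23), Hey1 0.18 without the pair (−0.49 to 0.068), Dll4 ran from −0.37 to 0.0055 and Jag2 from −0.96 to 0.13. Hes7 turned to 0.65, 0.54 and 0.069 in BN and 0.24, 0.13 and 0.018 over strains with exon reads and the RPKM pseudocounts of 0.1 and 1. No paired analysis was possible because replicate numbers join no libraries across groups.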
